A study of Mus musculus with 12 samples.

Results

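The genes of the translation initiation factors were followed in intestinal stem cells (ISCs) of young and old mice. They were taken as the protein-coding autosomal genes whose symbol begins with Eif1 to Eif6, without the kinases that phosphorylate eIF2 (Eif2ak genes), a rule that uses no measured value. It found 48 genes among the 54232 genes of the count table, on 17 chromosomes. Of these, 45 passed the filter on low counts and were tested among 13368 genes. Eif4e1b, an oocyte form of the cap-binding protein, and Eif4ebp3 had 0 counts in every library, and Eif5a2 had at most 3 counts in a library. A gene expressed below the limit that 3 counts in a library set would not have been seen. The last 400 bases of Eif4ebp3 are also part of an overlapping protein-coding gene on the same strand (AC115631.1), and how reads shared by overlapping genes were counted is not given in the sources used here, so its 0 is uncertain.

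ISCs had been isolated from the small intestine of individual female mice at 2 months (young) and 22 months (old), with 3 libraries from separate mice in each of 4 groups. The SM6 groups came from C57/Bl6 wild-type (WT) mice and were sorted by surface markers of ISCs. The Lgr5-GFP groups came from Lgr5-EGFP-IRES-CreERT mice, in which the Lgr5 locus drives a green fluorescent protein and an inducible Cre. Strain and isolation change together, and the sorting text in the labels describes surface markers for the reporter mice too, whereas a legend of the study names the reporter, so a difference between SM6 and Lgr5-GFP cannot be assigned to either. The labels give no treatment for any group. Libraries were made from the 3′ ends of polyadenylated RNA, and a level is given as CPM, a count scaled for the size of its library, after TMM scaling, which sets libraries with different RNA composition on one scale.

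Translation begins when a small ribosomal subunit that carries the initiator transfer RNA is loaded onto the capped end of a messenger RNA and scans to the start codon. eIF2 brings the initiator transfer RNA, the many-subunit eIF3 holds the small subunit, and eIF4F, made of cap-binding eIF4E, scaffold eIF4G and helicase eIF4A, prepares the message. The eIF4E-binding proteins hold eIF4E back until they are phosphorylated by mTOR, and the crypt is a tissue with rapid turnover in which this machinery is in steady use.

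All 14 listed ISC markers were detected in every library, Lgr5 with 245 to 969 counts. Library totals were 970472 to 3815425 counts. Markers of Paneth cells, the defensin-secreting neighbours of ISCs, moved in opposite directions with age in the SM6 and Lgr5-GFP libraries. The summed level of the 12 Paneth markers was 10730 to 67673 CPM in young and 44238 to 274910 CPM in old SM6 libraries, and 43258 to 246710 CPM in young and 18152 to 30935 CPM in old Lgr5-GFP libraries. The 7 goblet markers summed to 5705 to 9116 CPM in young and 17307 to 18224 CPM in old SM6 libraries, and to 5298 to 13740 CPM in young and 3153 to 5495 CPM in old Lgr5-GFP libraries. The 14 ISC markers summed to 15302 to 18755 CPM in young and 10138 to 11499 CPM in old SM6 libraries, and to 15241 to 16635 CPM in young and 12791 to 14583 CPM in old Lgr5-GFP libraries. The 8 enterocyte markers summed to 1790.3 to 1908 CPM in young and 2442 to 9086 CPM in old SM6 libraries, and to 1637 to 2914 CPM in young and 1960 to 11788 CPM in old Lgr5-GFP libraries. Much of the enterocyte sum was Fabp1, at 272 to 1023 CPM in young and 780.2 to 9851 CPM in old Lgr5-GFP libraries, and 5 of the 8 markers lay below 0 there (median log2 fold change -0.93). With age in SM6, edgeR called lower 3 of 14 ISC markers (Sox9, Znrf3 and Olfm4) and called higher 2 of 12 Paneth, 5 of 7 goblet, 4 of 8 enterocyte and 1 of 8 enteroendocrine markers (Sct). In Lgr5-GFP it called lower 3 Paneth and 2 enterocyte markers, and no marker of the other lists. No Paneth, goblet or enterocyte marker was at 0 in any library, while 3 of 10 immune, 2 of 7 stromal and endothelial and 1 of 6 tuft markers were at 0 in every library. The part of these cells in the results below was not tested beyond the alternatives given with them, and in bulk libraries fewer cells of a type and less RNA per cell cannot be told apart.

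The sequence around gene starts was read from RefSeq (GRCm38.p6), which held a start window from 250 bases before to 50 bases after the start for 36 of the 48 genes. Lines are shown for Eif3a and Eif5b, called in an age comparison below, and for Eif4a1 and Eif1b, which edgeR did not call. They were chosen by age result, Eif1b after its values were seen, and do not stand for the family. CACGTG, the same on both strands, is the E-box bound by MYC and its relatives. It was found in the windows of 10 of the 36 genes (27.8%), against 12% of 9381 tested genes and 8.09% of all 27025 genes with a window. In the lines below capitals mark CACGTG, in Eif3a 22 bases after the start (chr19:60790654-60790683, minus strand), in Eif4a1 189 bases before it (chr11:69672595-69672624, minus strand), and in Eif1b 24 bases before it (chr9:120492570-120492599, plus strand). For Eif5b the window around the start itself is shown, 10 bases before it and 20 from it on (chr1:37998000-37998029, plus strand), since none of its 300 bases spell CACGTG. Distances are from the RefSeq start, which for Eif3a (60790693) lies upstream of the gene start in GENCODE (60790658), so that CACGTG lies before the latter. For Eif1b the RefSeq start (120492606) lies downstream of the GENCODE start (120492232), so that CACGTG lies after the latter.
Eif3a: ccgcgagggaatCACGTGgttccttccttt
Eif4a1: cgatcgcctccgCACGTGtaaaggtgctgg
Eif1b: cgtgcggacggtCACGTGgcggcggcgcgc
Eif5b: ctgggttcccacctggccggcggctctact

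A terminal oligopyrimidine (TOP) start, by which mTOR controls many messages of the translation machinery, was scored as a C at the annotated start followed by at least 4 more C or T. It was found in 1 of the 36 genes, Eif3f, a share of 2.78% against 3.01% of all genes. The score needs the exact first base of the message, and annotated starts differ between sources, as for Eif3a and Eif1b above. Genes without a window, such as Eif3e and Eif3h, were not scored, so the share is uncertain. The line below shows 10 bases before the Eif3f start and 20 from it on (chr7:108934405-108934434, plus strand), with the pyrimidine run in capitals.
Eif3f: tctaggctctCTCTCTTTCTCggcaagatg

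These matches describe letters in a window and say nothing of a factor or of control. Among tested genes with a window, the median log2 fold change with age (average of both isolations) was 0.12 over the 9 genes with CACGTG and -0.05 over the 26 without. In single isolations the medians lay closer together, at 0.06 and 0.02 in SM6 and 0.01 and -0.04 in Lgr5-GFP. Eif3a, with the largest age difference of the former, and Eif5b, which has no CACGTG, both lay below 0.

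The summed share of the initiation factor genes overlapped between young and old. They took 1.05% ± 0.0385 (SD, n = 3) of all counts in young and 0.955% ± 0.178 in old SM6 libraries, and 0.976% ± 0.154 in young and 1.08% ± 0.0375 in old Lgr5-GFP libraries. The lowest shares were 0.751% (Wilson 95% interval 0.737 to 0.764, counting error only) in old SM6 replicate 3 and 0.806% (0.797 to 0.815) in young Lgr5-GFP replicate 1, the libraries in which defensin genes took 23.1% and 23.2% of counts. Without the defensin counts the share was 0.976% to 1.17% over the 12 libraries, with overlap between young and old in both isolations. The 14 eIF3 genes made up the largest block in every library in the plot of shares by role.

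**Figure D1:**
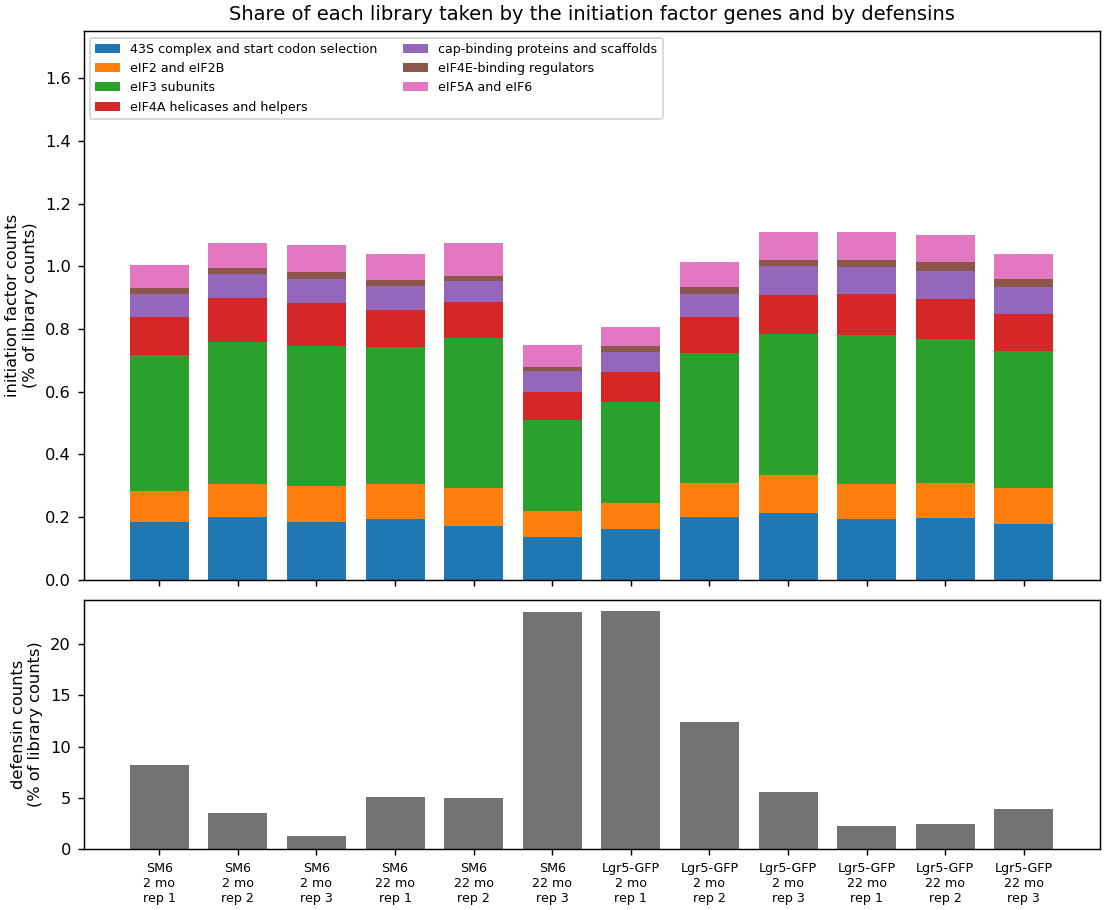
Counts of the initiation factor genes as a percent of all counts in each of the 12 libraries, stacked by role (upper), and the percent taken by defensin genes (lower). The whole stack lies between 0.751% and 1.11%, and the lowest stacks belong to the libraries with 23.1% and 23.2% defensin counts.

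Few single members differed with age. Old and young were compared with edgeR's quasi-likelihood test over all genes, and a gene was called at a Benjamini-Hochberg adjusted p under 0.05. In SM6, 0 of 45 members were called by edgeR, where 2.42% of all tested genes were, while DESeq2's Wald test called 2 and voom 1. DESeq2's Wald test and voom called 395 and 461 of all 13368 genes, against 323 by edgeR. At an unadjusted p under 0.05 there were 5 members in SM6, all lower, against 13.1% of all genes. In Lgr5-GFP, 1 member was called, Eif5b, which fell (0.471% of all genes were called, and 0.284% were called lower), and 3 had an unadjusted p under 0.05 (9.79% of all genes). In the average of both isolations, 1 member was called, Eif3a, which fell (2.66% of all genes were called, and 2.06% lower). There 6 members, all lower, had an unadjusted p under 0.05, against 12.8% of all genes. The difference between the age effects of Lgr5-GFP and SM6 was called for 0 of 45 members by edgeR (0.658% of all genes). DESeq2's Wald test called it for 1 member and for 93 of 13368 genes. In edgeR, 4 members had an unadjusted p under 0.05 for it (9.43% of all genes), 2 in each direction.

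The members' median log2 fold change with age was 0.01 in SM6 (range -1.07 to 0.46) and 0.03 in Lgr5-GFP (range -0.70 to 0.50), beside medians over all genes of -0.01 and -0.03. For 41 of 45 members in SM6 and 41 of 45 in Lgr5-GFP the 95% interval lay within a 2-fold change either way, and within a 1.5-fold change for 24 and 21. The members within a 2-fold, but not a 1.5-fold, change include Eif4a1, Eif1a and Eif3j1 in SM6 and Eif1b in Lgr5-GFP. Their intervals left out 0 although edgeR did not call them. The libraries of young and old did not overlap for 3 members that were higher and 6 that were lower in old SM6 libraries (7.74% and 9.78% of all genes), and for 6 higher and 1 lower in old Lgr5-GFP libraries (6.61% and 7.95% of all genes).

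**Figure D2:**
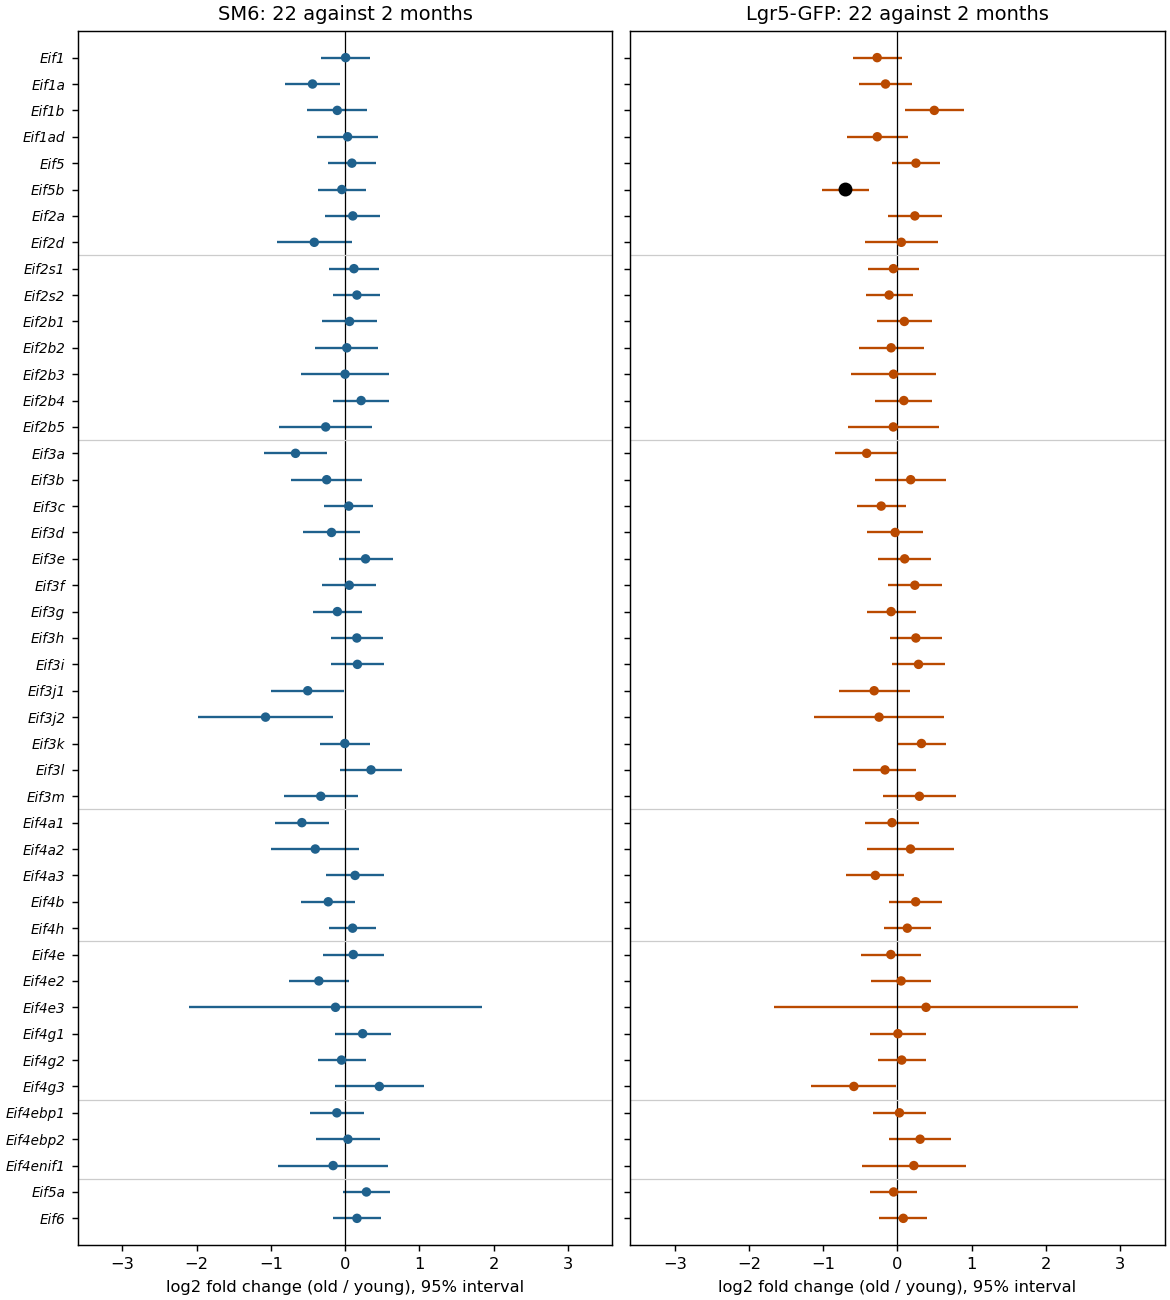
Log2 fold change of old against young for the 45 tested members in SM6 (left) and Lgr5-GFP (right), ordered by role with lines between roles; points are edgeR estimates, bars 95% intervals, and a large black point marks a called gene. Only Eif5b in Lgr5-GFP is called (-0.70), and most points lie near 0.

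The role group named for the 43S complex and start codon selection was drawn broadly, and not every gene in it acts in that step. It held 8 genes, Eif1, Eif1a, Eif1ad, Eif1b, Eif2a, Eif2d, Eif5 and Eif5b, with a median average log2 fold change of -0.13. Eif5b encodes the GTPase that joins the large subunit to the small one at the start codon. Its level in the 3 young Lgr5-GFP libraries was 839, 863 and 804 CPM, and in the 3 old ones 554, 468 and 519.8 CPM. In SM6 it was 739.7, 747 and 586 CPM in young and 689, 692 and 630.3 CPM in old libraries. All old Lgr5-GFP libraries thus lay below every other library of the series, and the SM6 ages overlapped. The log2 fold change was -0.70 in Lgr5-GFP (SE 0.16, 95% interval -1.02 to -0.38, edgeR quasi-likelihood adjusted p = 0.0398) and -0.04 in SM6 (interval -0.36 to 0.28, adjusted p = 0.956). The difference between these age effects was -0.66 (SE 0.22) and was not called by edgeR (adjusted p = 0.292), though DESeq2's Wald test called it. In the average of both isolations Eif5b had a log2 fold change of -0.37 (edgeR adjusted p = 0.0777).

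The Eif5b call lay close to the threshold. Leaving out 1 library at a time, it was kept without young SM6 replicate 3, old SM6 replicate 2 or old SM6 replicate 3 (edgeR adjusted p = 0.0424, 0.0409 and 0.0141), and was lost without each of the other 9. The adjusted p in edgeR was 0.0502, 0.0511 and 0.0563 without old SM6 replicate 1, young SM6 replicate 1 and young SM6 replicate 2. It was 0.0974, 0.108 and 0.0690 without young Lgr5-GFP replicates 1 to 3, and 0.101, 0.115 and 0.124 without old Lgr5-GFP replicates 1 to 3. The log2 fold change stayed between -0.76 and -0.63. Fitted with the share of defensin counts as a term it was -0.62 (edgeR adjusted p = 0.273), and with defensin and Paneth genes removed -0.68 (adjusted p = 0.0327). Over all 13 alternatives other than leaving out a library the adjusted p, from edgeR, DESeq2 or limma, ran from 0.000147 to 0.386, and 9 of them kept the call. Exons of Eif5b (chr1:37998010-38055579, plus strand) overlap exons of Rev1 on the other strand, and the strand setting of the counting is not given in the sources used here.

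**Figure D3:**
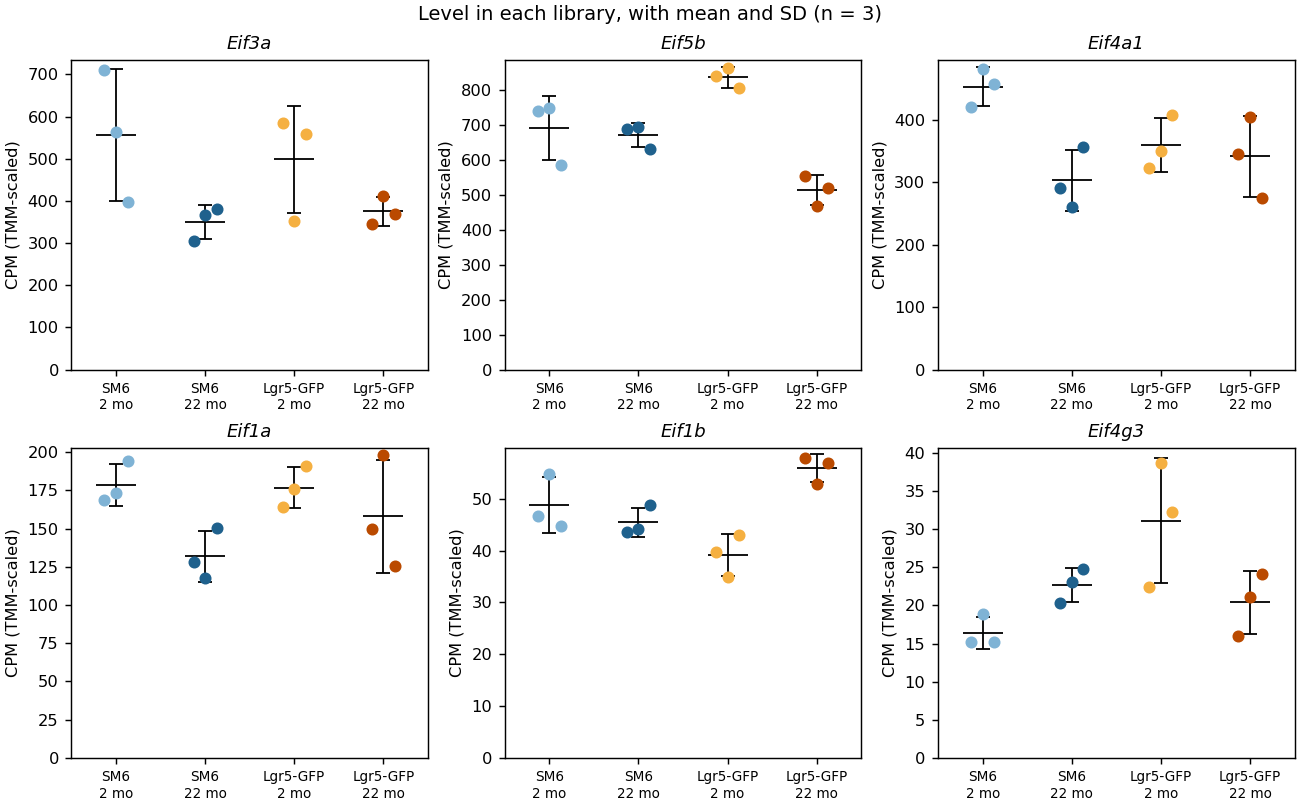
Level (CPM after TMM scaling, linear axis from 0) of 6 members in each library, with the group mean and SD (n = 3). The old Lgr5-GFP libraries lie lowest for Eif5b (468 to 554 CPM), and the old SM6 libraries lie below the young ones for Eif3a, Eif4a1 and Eif1a.

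Eif1 and Eif1b encode closely related proteins that keep the scanning complex open until the start codon is met, and Eif1a encodes a partner of the same complex. Eif1b, named here after its values were seen, like Eif1a, had 39.7, 35.0 and 43.05 CPM in young and 58.0, 52.9 and 56.9 CPM in old Lgr5-GFP libraries. Its log2 fold change there was 0.50 (SE 0.19), without overlap, and was not called (edgeR adjusted p = 0.369). In SM6 its log2 fold change was -0.11 (interval -0.51 to 0.30). Within a library, Eif1b made up 14.4% ± 2.56 of the Eif1 and Eif1b counts in young and 22.5% ± 2.66 in old Lgr5-GFP libraries, and 17.4% ± 0.970 and 16.4% ± 1.46 in SM6 (SD, n = 3). Eif1a had 169, 173 and 194 CPM in young and 128, 117 and 150.2 CPM in old SM6 libraries. These groups did not overlap, and the log2 fold change of -0.44 was not called (edgeR adjusted p = 0.259). Eif1 and Eif1a share stretches of at least 72 bases with other genes or pseudogenes near their 3′ ends, so their counts are uncertain.

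eIF2 carries the initiator transfer RNA and eIF2B recharges it with GTP. None of their 7 autosomal genes was called by edgeR in any age comparison or had an unadjusted p under 0.05, and their average log2 fold changes ran from -0.16 to 0.15. Eif2s1, the eIF2 alpha subunit whose phosphorylation lowers initiation under stress, had 257, 299 and 306 CPM in young and 302, 345 and 289 CPM in old SM6 libraries. In Lgr5-GFP it had 243, 324 and 291 CPM in young and 289, 236 and 299.9 CPM in old libraries. The ages overlapped in both isolations, and the average log2 fold change was 0.03 (95% interval -0.21 to 0.27). Eif2b5, the catalytic eIF2B subunit and the member of this role with the largest average age difference, ranged from 21.8 to 34.7 CPM in young and 16.0 to 30.4 CPM in old SM6 libraries. Its range was 28.1 to 31.2 CPM in young and 16.0 to 35.8 CPM in old Lgr5-GFP libraries, and its average log2 fold change was -0.16 (interval -0.60 to 0.28). Leaving out 1 library at a time, this average ran from -0.265 to -0.0037, and the rank in the role was not checked in those fits.

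Of the 14 eIF3 genes, 1 was called in the average of both isolations, and the median over the 14 was -0.03. Eif3a encodes the largest subunit, a scaffold on which the rest of eIF3 is built. Its level was 710.0, 564 and 397 CPM in young and 305, 366 and 381 CPM in old SM6 libraries. In Lgr5-GFP it was 584, 353 and 558 CPM in young and 345, 412 and 368 CPM in old libraries. Old lay below young without overlap in SM6 but not in Lgr5-GFP, where young replicate 2 fell among the old libraries. The average log2 fold change was -0.54 (SE 0.14, 95% interval -0.84 to -0.24, edgeR quasi-likelihood adjusted p = 0.0430). It was -0.67 in SM6 (adjusted p = 0.0930) and -0.41 in Lgr5-GFP (adjusted p = 0.522), neither called by edgeR, and the difference between them was 0.25 (SE 0.29, adjusted p = 0.852).

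Young libraries differed more among themselves in Eif3a (SD 156 CPM in SM6 and 127 CPM in Lgr5-GFP) than old ones (SD 40.5 and 34.0 CPM), a spread that was not tested. In the order of replicates, defensins took 8.24%, 3.46% and 1.26% of counts in young SM6 libraries and 23.2%, 12.4% and 5.57% in young Lgr5-GFP libraries. Fitted with the share of defensin counts as a term the average log2 fold change was -0.48 (edgeR adjusted p = 0.0501), and in SM6 alone it was -0.84 and called (adjusted p = 0.0231). Over the 12 alternatives other than leaving out a library the adjusted p for the average, from edgeR, DESeq2 or limma, ran from 0.000967 to 0.101, and 8 of them kept the call. The call in the average was kept without young SM6 replicate 3, old SM6 replicate 3, young Lgr5-GFP replicate 2 or old Lgr5-GFP replicate 2 (edgeR adjusted p = 0.0151, 0.0300, 0.0118 and 0.0420). It was lost without each of the other 8: young SM6 replicates 1 and 2 (edgeR adjusted p = 0.151 and 0.0993), old SM6 replicates 1 and 2 (0.156 and 0.0775), young Lgr5-GFP replicates 1 and 3 (0.114 and 0.122), and old Lgr5-GFP replicates 1 and 3 (0.117 and 0.0925). The log2 fold change stayed between -0.64 and -0.43. Eif3a (chr19:60761117-60790658, minus strand) overlaps no other annotated exon and had no near-identical copy near its 3′ end.

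A ratio within a library needs no scaling between libraries. Eif3a made up 12.95% ± 3.35 of the counts of all eIF3 genes in young and 8.37% ± 1.80 in old SM6 libraries, and 12.1% ± 3.49 in young and 8.89% ± 0.899 in old Lgr5-GFP libraries (SD, n = 3). Young and old overlapped in both. Eif5b made up 8.15% ± 0.526 of all member counts in young and 5.13% ± 0.464 in old Lgr5-GFP libraries, and 6.84% ± 0.755 and 6.62% ± 0.167 in SM6. The Lgr5-GFP ages did not overlap in this share. These ratios were chosen after the values were seen, and no test was made of them.

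**Figure D4:**
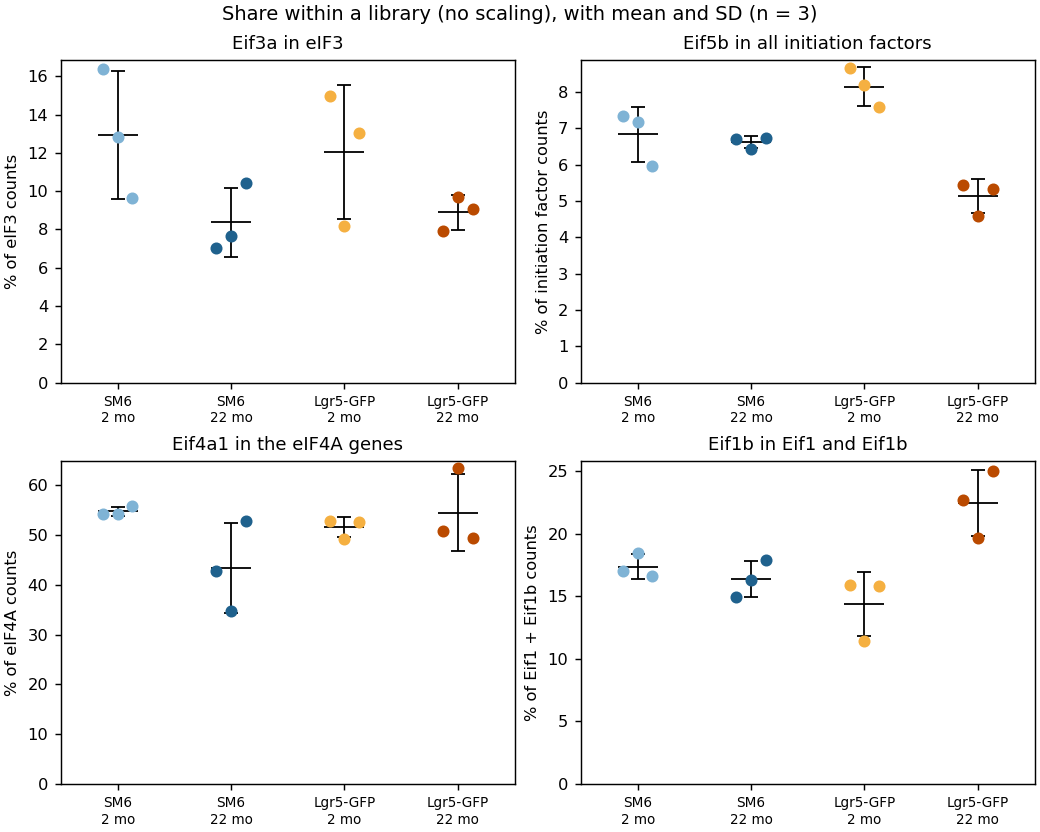
Shares within each library, on linear axes from 0: Eif3a among eIF3 counts, Eif5b among all member counts, Eif4a1 among the counts of Eif4a1, Eif4a2 and Eif4a3, and Eif1b among Eif1 and Eif1b counts, with the group mean and SD (n = 3). Eif5b goes from 8.15% to 5.13% and Eif1b from 14.4% to 22.5% in Lgr5-GFP, without overlap, while SM6 ages overlap for both.

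Eif3j1 and Eif3j2 encode the loosely bound eIF3j subunit. Eif3j2 had 17.6, 12.2 and 17.3 CPM in young and 2.34, 11.5 and 7.99 CPM in old SM6 libraries, and 13.9, 8.51 and 12.8 CPM in young and 6.66, 14.6 and 9.64 CPM in old Lgr5-GFP libraries. It had the largest average log2 fold change of the eIF3 genes (-0.66, 95% interval -1.29 to -0.03), on 3 to 44 counts a library, and was not called (edgeR adjusted p = 0.362). The last 400 bases of its transcript are 99.75% identical to Eif3j1, so counts of the pair could be split between them. Eif3j1 had an average log2 fold change of -0.41 (interval -0.75 to -0.07, edgeR adjusted p = 0.265).

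None of the 5 genes for the eIF4A helicases and their helpers was called with age by edgeR, and 1, Eif4a1, had an unadjusted p under 0.05 in SM6 and in the average. Eif4a1 encodes the main helicase of eIF4F, which unwinds structure ahead of the scanning subunit. It had 421, 482 and 457 CPM in young and 291, 259.9 and 357 CPM in old SM6 libraries. In Lgr5-GFP it had 323, 349.8 and 407 CPM in young and 346, 404 and 275 CPM in old libraries. The SM6 ages did not overlap, and the Lgr5-GFP ages did. The log2 fold change was -0.58 in SM6 (SE 0.17, 95% interval -0.94 to -0.22, edgeR adjusted p = 0.0821) and -0.07 in Lgr5-GFP (interval -0.43 to 0.29). Without old SM6 replicate 3, the old library with the most defensin counts, the log2 fold change in SM6 was -0.71 and called (edgeR adjusted p = 0.0298). Without each of the other 11 libraries it was not called (adjusted p up to 0.320). Over the 13 alternatives other than leaving out a library the adjusted p, from edgeR, DESeq2 or limma, ran from 0.0107 to 0.177, and was under 0.05 in 5 of them. Of the counts of the 3 eIF4A genes, Eif4a1 held 54.8% ± 0.943 in young and 43.4% ± 9.04 in old SM6 libraries, and 51.6% ± 2.06 and 54.5% ± 7.74 in Lgr5-GFP (SD, n = 3). Over all libraries Eif4a3 averaged 320 CPM and Eif4a2 29.1 CPM, so the share mainly sets Eif4a1 against Eif4a3. Eif4a2 and Eif4a3, the rest of that sum, have near-identical copies at their 3′ ends (276 to 400 bases at 96.25% to 99.28% identity), so the share is uncertain to that extent, and small nucleolar RNA genes lie within exons of Eif4a1 (chr11:69666936-69672423, minus strand).

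Among the cap-binding proteins and scaffolds, 6 genes were tested and 0 were called with age by edgeR, with 1, Eif4g3, at an unadjusted p under 0.05 in Lgr5-GFP. Eif4e, which binds the cap and is the limiting part of eIF4F in many cells, had 61.3, 64.9 and 71.5 CPM in young and 63.1, 61.8 and 88.7 CPM in old SM6 libraries. In Lgr5-GFP it had 76.2, 77.5 and 97.7 CPM in young and 80.0, 92.7 and 63.7 CPM in old libraries. Its ages overlapped in both isolations, and the average log2 fold change was 0.01 (95% interval -0.28 to 0.30). Its last 400 bases are 98.25% identical to a pseudogene, so its counts are uncertain. Eif4g1, the main scaffold, had 233, 263 and 249 CPM in young and 295, 239 and 344 CPM in old SM6 libraries, and 297, 229 and 349 CPM in young and 343, 256 and 282 CPM in old Lgr5-GFP libraries. Eif4g2, a scaffold that does not bind eIF4E, had 246, 239 and 243 CPM in young and 256, 227 and 221 CPM in old SM6 libraries, and 282, 246 and 254 CPM in young and 236, 307 and 273 CPM in old Lgr5-GFP libraries. Both scaffolds overlapped between ages, with average log2 fold changes of 0.12 (interval -0.14 to 0.39) and 0.01 (-0.22 to 0.23).

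Eif4e2, a cap-binding relative that acts mostly as a repressor, had the largest average age difference of this role (log2 fold change -0.15). Leaving out 1 library at a time, this average ran from -0.24 to -0.06, and the rank was not checked in those fits. Eif4e2 had 160.2, 149 and 131 CPM in young and 111, 112 and 122 CPM in old SM6 libraries, and 97.0, 165 and 130.4 CPM in young and 103, 159 and 141 CPM in old Lgr5-GFP libraries. The SM6 ages did not overlap, and the log2 fold change there was -0.35 (95% interval -0.76 to 0.05, edgeR adjusted p = 0.473). Eif4g3, named after its values were seen, had age differences of opposite sign. Its log2 fold change was 0.46 in SM6 and -0.59 in Lgr5-GFP, and the difference of -1.05 (SE 0.40) was not called (edgeR adjusted p = 0.386). It had 15.2, 18.8 and 15.2 CPM in young and 20.3, 23.1 and 24.8 CPM in old SM6 libraries, and 22.4, 38.8 and 32.3 CPM in young and 16.0, 21.1 and 24.1 CPM in old Lgr5-GFP libraries.

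The eIF4E-binding regulators did not change past the threshold (0 of 3 tested by edgeR, and 0 at an unadjusted p under 0.05). Eif4ebp1 had 106, 84.2 and 109 CPM in young and 101, 80.8 and 95.9 CPM in old SM6 libraries, and 96.4, 97.4 and 95.2 CPM in young and 96.0, 113 and 84.9 CPM in old Lgr5-GFP libraries. Eif4ebp2 had 77.7, 77.0 and 82.4 CPM in young and 92.7, 73.3 and 77.5 CPM in old SM6 libraries, and 117, 94.5 and 79.1 CPM in young and 82.6, 143 and 137 CPM in old Lgr5-GFP libraries. Ages overlapped for both genes in both isolations, with average log2 fold changes of -0.04 (95% interval -0.30 to 0.21) and 0.17 (-0.13 to 0.47). Per 100 Eif4e counts there were 272 ± 25.9 Eif4ebp1 and Eif4ebp2 counts in young and 250.4 ± 55.3 in old SM6 libraries, and 235 ± 52.0 and 283 ± 62.8 in Lgr5-GFP (SD, n = 3). Phosphorylation, by which these proteins are controlled, is not measured by RNA counts.

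Eif5a encodes a hypusine-carrying factor that helps peptide bond formation, and Eif6 a factor that keeps the large subunit from joining too early. Eif5a had 527, 542 and 567 CPM in young and 574, 770.3 and 653 CPM in old SM6 libraries, and 548, 606 and 636 CPM in young and 578, 590.3 and 558 CPM in old Lgr5-GFP libraries. It did not overlap in SM6, where the log2 fold change was 0.29 (95% interval -0.03 to 0.61, edgeR adjusted p = 0.456). Its counts are uncertain too, since a pseudogene matches 387 bases at its 3′ end with 97.16% identity. Eif6 had 206, 236 and 223 CPM in young and 246, 271 and 225 CPM in old SM6 libraries, and 182, 222 and 203 CPM in young and 231, 195 and 212 CPM in old Lgr5-GFP libraries. Its ages overlapped, and its average log2 fold change was 0.12 (interval -0.11 to 0.35).

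Between the isolations at the same age, 0 of 45 members were called at 2 months (0.0898% of all genes were called) and 0 at 22 months (0.718% of all genes), by edgeR, by DESeq2's Wald test and by voom alike. At an unadjusted p under 0.05 in edgeR there was 1 member at 2 months (7.47% of all genes) and there were 4 at 22 months (9.40% of all genes), 2 in each direction. The member at 2 months was Eif4g3, higher in Lgr5-GFP by 0.88 (log2, edgeR adjusted p = 0.369). The 4 at 22 months were Eif4ebp2 (log2 difference 0.57) and Eif4b (0.47), higher in Lgr5-GFP, and Eif4a3 (-0.56) and Eif5b (-0.38), lower. For 42 of 45 members the 95% interval lay within a 2-fold difference at either age. These comparisons share libraries with the age comparisons, so an extreme young or old group enters both.

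Genes that act beside the initiation factors were read from lists of the same pathway. Of 11 tested poly(A)-binding and other helper genes, 1 was called in SM6 and in the average, where 2.42% and 2.66% of all genes were called. This was Paip1, a protein that links the poly(A)-binding protein to eIF4A, which fell in SM6 by 1.36 on the log2 scale (edgeR adjusted p = 0.00358), from 537 ± 129 to 209 ± 24.9 CPM (SD, n = 3). In Lgr5-GFP its log2 fold change was -0.77 (edgeR adjusted p = 0.247). Of 12 genes of mTOR and MNK signalling to translation, 2 were called lower in SM6 and in the average. These were Pdcd4, an inhibitor of eIF4A (log2 fold change -1.68 in SM6, edgeR adjusted p = 0.000115, and -0.36 in Lgr5-GFP), and Mknk2, a kinase of eIF4E (-0.85 in SM6, adjusted p = 0.0223, and -0.67 in Lgr5-GFP). Pdcd4 had 789 ± 116 CPM in young and 245 ± 60.8 CPM in old SM6 libraries, and 466 ± 20.3 and 363 ± 91.3 CPM in Lgr5-GFP (SD, n = 3). The difference between its age effects, Lgr5-GFP minus SM6, was 1.32 (SE 0.28) and was called (edgeR adjusted p = 0.0226, against 0.658% of all genes called), but the call was lost without any 1 of 7 libraries. In settings added after seeing the data, the SM6 calls of Paip1 and Pdcd4 were kept without any 1 of the 12 libraries. The SM6 call of Mknk2 was lost without young SM6 replicate 2 or 3 (edgeR adjusted p = 0.125 and 0.0558) and without old SM6 replicate 1, 2 or 3 (0.104, 0.0795 and 0.0510), while its call in the average (log2 fold change -0.76) was kept in each case.

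Of 10 genes for the kinases and phosphatase subunits of eIF2 alpha and their targets, Ppp1cb alone was called in SM6 and in the average (2.42% and 2.66% of all genes). It fell in SM6 by 1.24 on the log2 scale (edgeR adjusted p = 0.000959). It encodes a catalytic phosphatase subunit with many other partners. None of 8 elongation factors or 7 termination and recycling factors was called with age by edgeR. At an unadjusted p under 0.05 there was 1 elongation factor in SM6 and 1 in Lgr5-GFP, and 0 termination or recycling factors. In Lgr5-GFP edgeR called 0 genes of these lists. Of 80 tested ribosomal protein genes, 25 lay below 0 in SM6 (median log2 fold change 0.06) and 5 in Lgr5-GFP (median 0.28), where 50.7% and 53.6% of all genes lay below 0 (medians -0.01 and -0.03). In Lgr5-GFP against SM6, 69 of the 80 lay below 0 at 2 months (median -0.23) and 43 at 22 months (median -0.01), and the first of these comparisons shares the young Lgr5-GFP libraries with the age comparison. The only ones called were Rps25 and Rpl5, both lower in SM6 (log2 fold changes -1.27 and -0.95) and in the average (edgeR adjusted p = 0.00643 and 0.0294). In SM6 and in the average 2.42% and 2.66% of all genes were called. Near-identical copies were not searched for ribosomal protein genes. At an unadjusted p under 0.05 there were 1 higher and 5 lower in SM6 (13.1% of all genes), and 22 higher and 1 lower in Lgr5-GFP (9.79% of all genes). The call of Rpl5 in the average was lost without young SM6 replicate 3, old SM6 replicate 1, young Lgr5-GFP replicate 3, old Lgr5-GFP replicate 1 or old Lgr5-GFP replicate 3 (edgeR adjusted p = 0.122, 0.111, 0.133, 0.0903 and 0.0729), and its SM6 call without young SM6 replicate 3, old SM6 replicate 1 or old SM6 replicate 3 (0.189, 0.151 and 0.0658). That of Rps25 was kept without any 1 library.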

How the data were processed

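The authors aligned reads to the mouse genome (GRCm38, mm10) with STAR 2.4.2a and counted them over GENCODE vM15 exons with featureCounts, and the deposited values are these raw counts per gene. Whether reads with the same molecular identifier were collapsed, and the strand setting, are not given in the sources used here. Groups, ages and replicate numbers were taken from the sample titles. All columns of values were used.

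Symbols and positions were taken from GENCODE vM21 (54165 of 54232 genes matched) and start windows from RefSeq (GRCm38.p6). A gene was kept where at least 1 of the 12 libraries held over 5 reads and a CPM of at least 1, and TMM scaling followed, as in the study. The 4 groups were fitted together with edgeR 4.0.16 (R 4.3.3) by the quasi-likelihood test, two-sided, with Benjamini-Hochberg adjustment over all 13368 genes and calls at an adjusted p under 0.05. The scripts were tested on simulated data. Alternatives used limma 3.58.1 and DESeq2 1.42.0. Similar sequence was searched with BLAST 2.17.0 for the last 400 bases of the members' protein-coding transcripts only, counting matches of at least 72 bases at 95% identity or more. Chi-square per degree of freedom between libraries of a group was 3.61 to 47.4, above sampling noise in all 12 pairs.

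Members called in a comparison, the member with the largest average age difference in each role, and 10 fixed members (Eif4e, Eif4ebp1, Eif4ebp2, Eif4ebp3, Eif4g1, Eif4g2, Eif2s1, Eif3a, Eif5a and Eif6) were described in every library, except Eif2b5, which is given by its range in each group. The members and lists were chosen with earlier results of these data known.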

Additional observations from a re-analysis of the deposited data

Results flagged for a closer look

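The test for a single outlying library needs at least 4 libraries a group and was not made here, and all columns of values entered the comparisons. The libraries with the most defensin counts, old SM6 replicate 3 and young Lgr5-GFP replicate 1, are described in the report. Of the 45 tested members and 11 other genes named with a test, 2 had a called difference between the age effects of Lgr5-GFP and SM6, and both are genes of other lists. Among the markers of other cell types edgeR also called this difference, the age effect being lower in Lgr5-GFP than in SM6, for 11 of 12 Paneth, 3 of 7 goblet and 4 of 8 enterocyte markers, besides Sct, 1 of 8 enteroendocrine markers. The alternatives for Pdcd4 and Sct were chosen after seeing the data.

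For Pdcd4 the difference, Lgr5-GFP minus SM6, was 1.32 on the log2 scale (edgeR adjusted p = 0.0226). The call was lost without young SM6 replicate 2 or 3 (edgeR adjusted p = 0.0969 and 0.0537), old SM6 replicate 1 (0.0821), young Lgr5-GFP replicate 1 or 2 (0.0641 and 0.0577) and old Lgr5-GFP replicate 1 or 2 (0.0703 and 0.0732), and with the defensin share as covariate (1.33, adjusted p = 0.258). It was kept without each of the other 5 libraries and under the other 11 alternatives that used all libraries, and the difference stayed between 1.12 and 1.69.

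For Sct, an enteroendocrine marker, it was -1.998 (edgeR adjusted p = 0.0298), with log2 fold changes of 1.28 in SM6 and -0.72 in Lgr5-GFP. The call was lost without young SM6 replicate 1 or 3 (edgeR adjusted p = 0.0781 and 0.0717), old SM6 replicate 3 (0.0684), young Lgr5-GFP replicate 1 (0.223) and old Lgr5-GFP replicate 2 or 3 (0.0929 and 0.0920). It was also lost with library totals alone (adjusted p = 0.0550), voom (0.144), robust quasi-likelihood (0.215) and the defensin share as covariate (-1.27, adjusted p = 0.665).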

How the results depend on the processing

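With 3 libraries a group, calls of single members depended on the setting. In SM6 the count of members called (0 in the report) was 2 with library totals alone, with no filter beyond 1 count, with DESeq2's Wald test and at a threshold of 0.10, and 1 with voom and quality weights, with robust quasi-likelihood and with the defensin share as covariate. In the order named, these settings called 440, 603 (of 23621), 395, 508, 461, 341 and 282 of all genes, against 323 in the report. The members were Eif3a and Eif4a1 where 2 were called, Eif4a1 with voom and robust quasi-likelihood, and Eif3a with the defensin share, each lower. In Lgr5-GFP (1 in the report) it was 0 with library totals alone, with the defensin share as covariate and with only the groups compared. There 97, 28 and 81 of all genes were called, against 63 in the report. In the average (1 in the report) it was 0 with DESeq2 size factors, library totals alone and the defensin share as covariate, and 2, Eif3a and Eif5b, with DESeq2's Wald test, voom, robust quasi-likelihood and a threshold of 0.10. In the order named, 335, 289, 369, 383, 463, 373 and 486 of all genes were called, against 355 in the report. The difference between age effects gave 1 member, Eif5b, with DESeq2's Wald test (93 of all genes, against 88 in the report) and 0 with the other alternatives. Both comparisons between isolations gave 0 with each alternative. Leaving out 1 library at a time gave 0 to 1 in SM6, in Lgr5-GFP and in the average, and 0 in the other comparisons. In SM6 the 1 was Eif3a without young SM6 replicate 3 and Eif4a1 without old SM6 replicate 3. Library totals alone moved the median log2 fold change of all genes to -0.16 in SM6 and 0.16 in Lgr5-GFP, the median of the members to -0.14 and 0.22, and Eif5b in Lgr5-GFP to -0.51. The sign of the members' median was not stable: it was -0.05 in Lgr5-GFP with the defensin share as covariate and -0.0045 in SM6 with no filter, and without 1 library it ran from -0.041 to 0.033 in SM6 and -0.069 to 0.043 in Lgr5-GFP.

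Of the 14 members whose average age difference was recomputed, 4 with values near 0 turned direction in at least 1 setting. Eif4e went to -0.0049 with no filter and -0.022 with voom, and Eif4g2 to -0.0100 and -0.014. Without 1 library it ran from -0.076 to 0.076 for Eif4e, -0.042 to 0.052 for Eif4g2, -0.098 to 0.0031 for Eif4ebp1 and -0.020 to 0.083 for Eif2s1. With the replicate number as a block, 0 members were called in Lgr5-GFP and 0 in the average (Eif5b -0.70, edgeR adjusted p = 0.0530, and Eif3a -0.53, adjusted p = 0.0645). Deviations of same-numbered libraries had correlations of -0.07 to 0.05 over 18 pairs, and those of other pairs -0.11 to 0.14 over 36. With 3 libraries a group, such values cannot tell whether the numbers pair the samples. Of the genes of other translation lists, Pdcd4, Ppp1cb and Rps25 kept their calls in SM6 and in the average under each alternative, Paip1 lost the SM6 call with robust quasi-likelihood (adjusted p = 0.0552), Mknk2 with the defensin share as covariate (adjusted p = 0.0516), and Rpl5 with both (adjusted p = 0.0588 and 0.134). Rpl5 also lost the call in the average with library totals alone (adjusted p = 0.0855) and with robust quasi-likelihood (adjusted p = 0.0710).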

Other observations

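The sex chromosome members of the family were left out of the 48 genes. Eif1ax, which encodes the same factor as Eif1a, had 153 ± 3.12 CPM in young and 142 ± 35.2 CPM in old SM6 libraries, and 168 ± 13.3 and 177 ± 10.2 CPM in the young and old Lgr5-GFP libraries (SD, n = 3). Averaged over both isolations its age difference was -0.02 on the log2 scale (edgeR adjusted p = 0.982). Eif2s3x, the eIF2 gamma subunit, had 32.9 ± 1.17 CPM in young and 24.05 ± 6.46 CPM in old SM6 libraries, and 26.1 ± 3.02 and 31.4 ± 4.94 CPM in Lgr5-GFP. Its log2 fold change was -0.46 in SM6 and 0.28 in Lgr5-GFP, and neither was called (edgeR adjusted p = 0.473 and 0.792).

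Eif5a carried CACGTG in the windows of several annotated starts, and the windows of Eif4e and Eif4g1 each held it at 2 positions. Of the 48 members, 13 had a stretch of at least 72 bases at 95% identity or more elsewhere in the transcriptome near the 3′ end, 10 overlapped exons of another gene on the same strand and 11 on the opposite strand.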
